A study of Mus musculus with 15 samples.

Results

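The genes described are 40 that carry out or mark DNA replication and mitosis, taken by name from a list and read in sorted cells of the melanoma vasculature. They comprise 16 S phase genes and 24 G2/M genes, of 53465 genes in the table, and all 40 were measured and passed the filter on low values. The study sorted 3 populations from subcutaneous B16-F0 melanomas (a mouse tumor line) carried by mice in which the CAG promoter drives GFP in all cells, so that GFP positive cells are of the host. Endovascular progenitors (EVP), transit amplifying (TA) and definitive differentiated (D) cells were all lineage negative and CD34 positive. They were told apart by surface CD31 and VEGFR2, which were both low in EVP, intermediate and low in TA, and both high in D. Each population had 5 libraries, 15 in all, and the labels name no further allele or agent. Neither the labels nor the methods say which libraries came from the same animals, so p-values measure the spread between these libraries.

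Cells copy their DNA in S phase and divide in mitosis. In G1, Cdc6 helps load the Mcm2 to Mcm7 helicase on origins of replication, and in S phase the helicase opens the DNA while the clamp encoded by Pcna holds the polymerase on it. Rrm1, Rrm2, Tyms and Tk1 supply the nucleotides. Mitotic entry is driven by Cdk1 with cyclins A and B, and Aurora and Polo-like kinases, the spindle checkpoint and kinesins act in the division. Cdc20 and Ube2c help to mark proteins for destruction during mitosis. Many S phase genes are known targets of E2F transcription factors, and many G2/M genes are known to carry a cell cycle homology region (CHR) and CCAAT boxes in their promoters.

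The promoters of the S phase and G2/M genes differed in these letters. RefSeq start sites on GRCm38.p6 gave a window of 300 bases (250 before and 50 after the start) for 32 of the 40 genes, and no window was given for Ccne2, Kif20a, Gins2, Foxm1, Tpx2, Mcm4, Ccna2 and Aurkb. The window of E2f1 held 188 bases of its own annotated coding sequence and was left out, so 31 genes were searched, 12 of S phase and 19 of G2/M. Mcm7 had 2 windows, which both held CCAAT and E2F matches, and was counted once. Windows that overlapped the gene's own annotated untranslated sequence were kept. For Cdca3 and for 1 window of Mcm7 this sequence covered all 250 bases before the start. On both strands the letters searched were TTTGAA for the CHR, CCAAT for the CCAAT box, and for E2F either TTCCCGC or else TTCGCGC or else TTGCCGC or else TTGGCGC, and matches may overlap. Of all 32851 windows, 17.9% held the CHR letters, 37.4% the CCAAT letters and 9.57% an E2F match. Among the G2/M genes 14 of 19 held the CHR letters and 3 an E2F match, while among the S phase genes 1 of 12, Mcm2, held the CHR letters and 7 an E2F match. CCAAT letters were held by 17 of 19 G2/M genes and 8 of 12 S phase genes. Of the 8 G2/M genes that were lower in EVP than in D, given further on, 7 held the CHR letters, as did 7 of the 11 others with a window. The 250 bases before the start are printed for Cdk1 (chr10:69352913-69353162, minus strand) and Mcm6 (chr1:128359706-128359955, minus strand), which differed between the populations, and for Mki67 (chr7:135716380-135716629, minus strand), which did not pass the test. Capitals mark matches to any of the letters above.
Cdk1: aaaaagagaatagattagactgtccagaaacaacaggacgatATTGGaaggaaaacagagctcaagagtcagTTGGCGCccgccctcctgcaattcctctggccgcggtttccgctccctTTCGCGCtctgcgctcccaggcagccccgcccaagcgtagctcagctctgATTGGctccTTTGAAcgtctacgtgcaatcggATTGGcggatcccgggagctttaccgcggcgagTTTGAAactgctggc
Mki67: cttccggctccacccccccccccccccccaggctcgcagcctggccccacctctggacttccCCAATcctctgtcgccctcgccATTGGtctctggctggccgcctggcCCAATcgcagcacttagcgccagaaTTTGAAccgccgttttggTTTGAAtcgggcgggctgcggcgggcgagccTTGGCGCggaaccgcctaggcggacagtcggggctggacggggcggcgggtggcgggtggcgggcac
Mcm6: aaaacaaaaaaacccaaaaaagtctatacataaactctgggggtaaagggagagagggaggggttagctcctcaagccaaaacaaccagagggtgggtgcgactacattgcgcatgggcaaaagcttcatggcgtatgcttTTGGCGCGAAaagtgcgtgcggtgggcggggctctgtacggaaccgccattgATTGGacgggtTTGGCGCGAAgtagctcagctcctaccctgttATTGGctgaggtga
The windows of Cdk1 and Mki67 each held 2 CHR, 3 CCAAT and at least 1 E2F match in these 250 bases, and that of Mcm6 held E2F and CCAAT matches with no CHR letters. A match describes the sequence and is not a bound site.

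Values are normalized counts, that is, reads counted on a gene divided by 1 size factor per library. Reads on genes ranged from 5394356 to 26513073 per library, and the lowest count of any of the 40 genes was 67 reads, for E2f1 in EVP replicate 1. Replicate 1 had the fewest reads in each population, and reads fell on 81.6% to 98.3% of 1106 olfactory receptor genes there, against 2.89% to 71.0% in the others. Of the 40 genes, 17 overlap another annotated gene, for 12 of them a gene that itself passed the filter on low values, and how reads there were assigned is not given in the sources used here. Summed marker levels, as TPM (reads per base of exon, scaled to the same sum in each library), differed widely. Over 10 pan-endothelial genes they were 82.5 to 310.0 in EVP, 534 to 2449 in TA and 3351 to 9014 in D, and all 10 had a lower mean of log values in EVP than in D, 9 of them past the test. The 10 include Pecam1 and Kdr, which encode the CD31 and VEGFR2 used in the sort, so the sort itself selected for a difference in both. The 10 fibroblast genes ran the other way, with 11493 to 37442 in EVP, 3403 to 17798 in TA and 185 to 236 in D. The EVP libraries were thus low in endothelial and high in fibroblast transcripts. In bulk samples, fewer dividing cells and less RNA per cell cannot be told apart.

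Most of these transcripts were at lower relative levels in the EVP libraries than in the D libraries. Of the 40 genes, 38 had a lower mean of log values in EVP than in D, and 13 passed the test as lower (Benjamini-Hochberg adjusted p under 0.05 over 25549 genes, limma), 5 of S phase and 8 of G2/M. One gene, E2f1, passed as higher. Over all genes tested, 19.0% were called, 7.46% as lower and 11.6% as higher in EVP, and 32.3% had a difference below 0. The median log2 difference, EVP minus D, was -0.60 over the S phase genes and -0.66 over the G2/M genes, beside 0.46 over all genes tested. The last value was 0.055 without EVP replicate 1, when the S phase and G2/M medians were -0.59 and -0.74, and -0.04 with quantile normalization, when they were -0.53 and -0.61. Without EVP replicate 4 the S phase and G2/M medians were nearer to 0, at -0.38 and -0.45, and 34 of the 40 were lower in EVP. The libraries of EVP and D did not overlap for 11 of the 40 genes, 3 of S phase and 8 of G2/M, beside 7.52% of all genes with EVP lower and 10.2% with EVP higher.

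**Figure D1:**
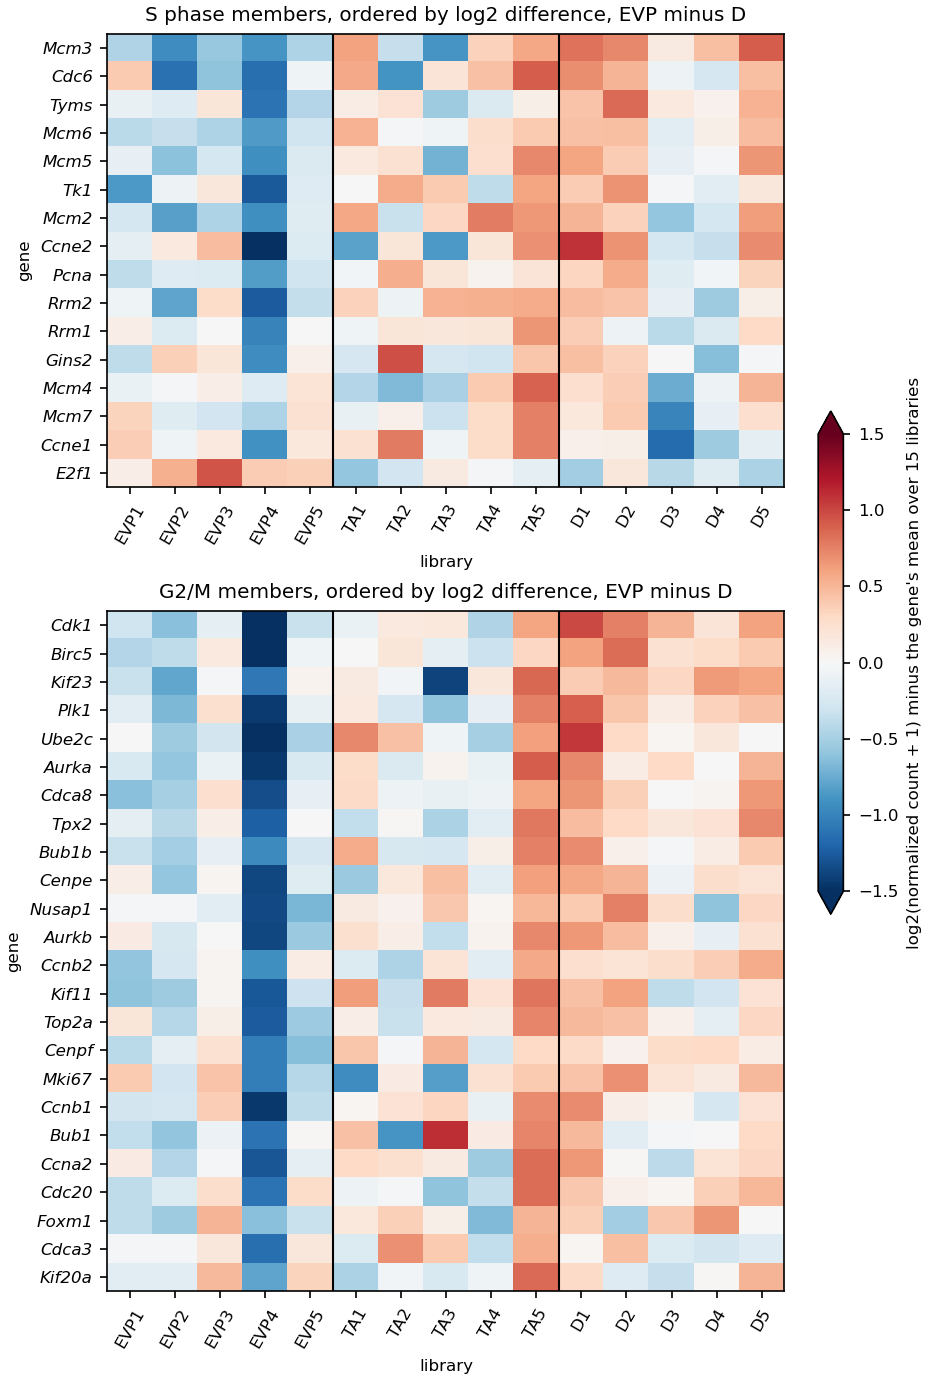
Each row is a gene and each column a library; color gives log2(normalized count + 1) minus the gene's mean over 15 libraries, with S phase genes above and G2/M genes below, ordered by the log2 difference between EVP and D. EVP replicate 4 is the lowest library for 33 of 40 genes and TA replicate 5 the highest for 18. Of the S phase genes, E2f1 and Ccne1 have a higher mean of log values in EVP than in D.

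Of the helicase subunits, Mcm3, Mcm5 and Mcm6 passed as lower in EVP than in D, and no test compared the subunits with each other. Mcm3 had the largest difference of the S phase genes. Its normalized counts were 1527, 1092, 1414, 1130.1 and 1519 in EVP replicates 1 to 5, 3171, 1641, 1128, 2649.8 and 3115 in TA and 3681, 3435, 2298, 2869 and 3929 in D. EVP was below D in all libraries, TA overlapped both, and the mean was 2.43-fold higher in D (log2 difference, EVP minus D, -1.27 ± 0.26, SE, limma adjusted p = 0.00151). Mcm6 read 2763, 2874, 2641, 2022 and 2969 in EVP replicates 1 to 5, 5264, 3572, 3501, 4373 and 4810.5 in TA and 4952, 4997, 3255, 3891 and 5054 in D. All 5 EVP libraries were below all 10 others, and Mcm6 passed the test against both D (-0.73 ± 0.17, limma adjusted p = 0.00419) and TA (-0.69 ± 0.17, limma adjusted p = 0.0293). For Mcm5 the counts were 1509.8, 1071, 1365, 864 and 1415 in EVP replicates 1 to 5, 1820.1, 1916, 1003, 1948 and 2691 in TA and 2467, 2136, 1507, 1608 and 2598 in D. EVP replicate 1 was level with the lowest D library, and the difference of -0.72 ± 0.25 was near the threshold (limma adjusted p = 0.0486).

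Mcm2 was most abundant in TA, at 1914, 1306, 1667, 1212 and 2020.4 in EVP replicates 1 to 5, 3437, 1816, 2851, 3891 and 3594 in TA and 3255, 2922, 1537, 1913 and 3529 in D. D overlapped both EVP and TA, EVP and TA overlapped through TA replicate 2, and neither EVP against D (-0.65 ± 0.26, limma adjusted p = 0.0911) nor EVP against TA (-0.92 ± 0.26, limma adjusted p = 0.057) passed. Mcm4 and Mcm7 gave log2 differences between EVP and D of -0.064 ± 0.29 and -0.016 ± 0.27 (SE), with limma adjusted p of 0.911 and 0.977. Relative to the median of all genes tested, these differences were -0.52 and -0.48. Ratios of reads within a library are free of the size factors. The pairs given were picked for their unequal differences after the values were seen, so the ratios describe that choice and are no further evidence. Mcm3 had 1.19 to 1.69 reads per Mcm7 read in EVP, 1.38 to 3.34 in TA and 2.55 to 4.46 in D, and Mcm6 had 1.68 to 2.16 reads per Mcm4 read in EVP, 1.90 to 5.21 in TA and 2.58 to 3.98 in D. Neither ratio overlapped between EVP and D. Mcm7 shares 64 bases with Cops6 and 421 with Ap4m1. The loading factor Cdc6 (-0.77 ± 0.35, limma adjusted p = 0.166) and Gins2, a subunit of the complex that activates the helicase (-0.16 ± 0.30, limma adjusted p = 0.798), did not pass.

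Pcna, the clamp, was low in all EVP libraries. Its counts were 1201, 1366, 1360.5, 875 and 1276 in EVP replicates 1 to 5, 1520.2, 2280.3, 1779, 1622 and 1790.3 in TA and 1966, 2313, 1376, 1525 and 1974 in D. No EVP library reached any TA or D library, though the margin to D was small, with means of 1216 ± 202 (SD, n = 5) in EVP, 1798 ± 292 in TA and 1831 ± 378 in D. The difference passed between EVP and D (-0.58 ± 0.18, limma adjusted p = 0.0313) but not between EVP and TA (-0.57 ± 0.18, limma adjusted p = 0.103). Tyms, which makes thymidylate, gave 1639.7, 1553, 2016, 821 and 1304 in EVP replicates 1 to 5, 1922, 2068, 1221, 1521 and 1883 in TA and 2389, 3185, 1971, 1848 and 2543 in D. EVP replicate 3 lay within the D range and EVP replicate 4 far below the rest of its population, and Tyms passed between EVP and D (-0.74 ± 0.23, limma adjusted p = 0.032).

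The subunits of ribonucleotide reductase, Rrm1 and Rrm2, did not pass in any comparison. Rrm2, the subunit that rises in S phase, had 3529, 2129, 4463, 1556 and 2874 in EVP replicates 1 to 5, 4712, 3516, 5297, 5328 and 5453 in TA and 5103, 4954, 3396, 2545 and 3917 in D. TA held the 3 highest libraries, and its mean of 4861 ± 805 (SD, n = 5) stood above 2910.1 ± 1144 in EVP and 3983 ± 1074 in D, with a log2 difference of 0.57 ± 0.22 between TA and the mean of EVP and D (limma adjusted p = 0.25). Rrm1 differed by -0.22 ± 0.22 and the salvage kinase Tk1 by -0.66 ± 0.27 between EVP and D (limma adjusted p = 0.622 and 0.114).

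E2f1, a transcription factor that drives S phase genes, was the only gene of the 40 that passed as higher in EVP than in D. Its counts were 235, 316, 422, 285 and 281 in EVP replicates 1 to 5, 147, 178, 241, 216 and 197 in TA and 152, 246, 164, 193 and 157 in D. The 4 highest of the 15 libraries were EVP, while EVP replicate 1 lay below TA replicate 3 and D replicate 2. The mean was 1.69-fold higher in EVP than in D (log2 difference 0.75 ± 0.24, limma adjusted p = 0.0378), which leaves 0.29 above the median of all genes tested, and with quantile normalization the difference was 0.35 (limma adjusted p = 0.539). In a pair picked for its opposite differences, Mcm3 reads per E2f1 read came to 4.54 ± 1.37 (SD, n = 5) in EVP, 12.7 ± 6.45 in TA and 18.4 ± 5.69 in D. Ccne1 and Ccne2, the E-type cyclins of the G1/S transition, parted as well, and Ccne1 counts were 625, 464, 534, 258 and 539 in EVP replicates 1 to 5, 567, 829.8, 462, 587 and 819 in TA and 509, 513, 217, 335 and 436 in D. Ccne1 was highest on average in TA and lowest in D (0.28 for EVP minus D, 0.73 ± 0.29 for TA minus D, limma adjusted p = 0.121), and Ccne2 was highest on average in D. Reads of Ccne1 per Ccne2 read, also picked after the values were seen, came to 0.755 to 1.45 in EVP, 0.997 to 1.94 in TA and 0.467 to 0.835 in D, where TA and D did not overlap.

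**Figure D2:**
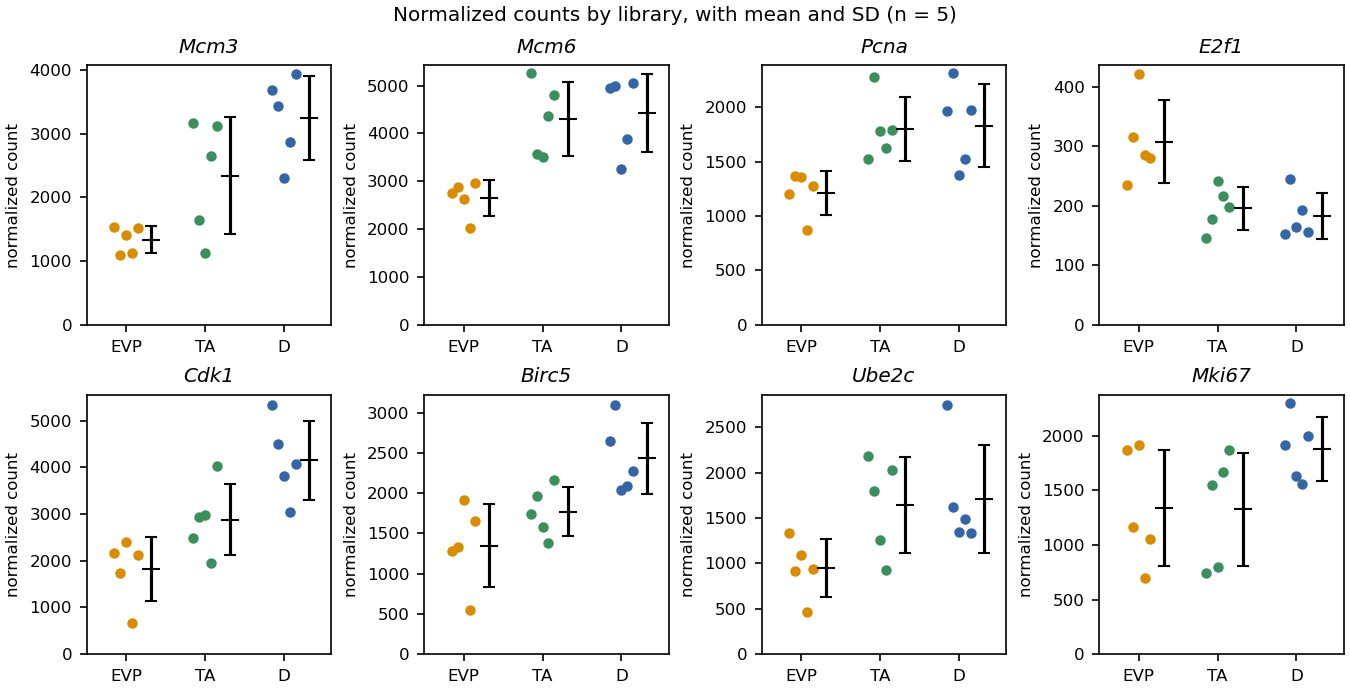
Points are the normalized counts of single libraries for 4 S phase genes (upper row) and 4 G2/M genes (lower row), and bars give the mean ± SD of 5 libraries. EVP and D do not overlap for Mcm3, Mcm6, Pcna, Cdk1 and Birc5, nor for Ube2c, where the nearest libraries are level to the nearest count. E2f1 is higher in EVP, and Mki67 overlaps in all populations.

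Of the G2/M genes, Cdk1, the kinase of mitotic entry, differed most. Its counts were 2166, 1727, 2403, 675 and 2121 in EVP replicates 1 to 5, 2494, 2945, 2982, 1953 and 4026 in TA and 5325, 4496, 3806, 3043 and 4062 in D. The highest EVP library was below the lowest D library, TA lay across the gap, and the mean was 2.28-fold higher in D (-1.29 ± 0.29, limma adjusted p = 0.00376). Its partner Ccnb2 gave 1675, 2114, 2583, 1334 and 2713 in EVP replicates 1 to 5, 2189, 1821, 2899, 2260.4 and 3736 in TA and 3008, 2911, 3031, 3264 and 3715 in D. All EVP libraries were below all D libraries, by a small margin, and it passed (-0.66 ± 0.21, limma adjusted p = 0.039). Ccnb1, the other B-type cyclin of Cdk1, had 1120.0, 1138, 1747, 498 and 1045 in EVP replicates 1 to 5, 1389, 1581, 1692, 1254 and 2212 in TA and 2213, 1455, 1394, 1141 and 1576 in D. EVP replicate 3 exceeded all but 1 D library, and the difference of -0.56 ± 0.27 did not pass (limma adjusted p = 0.198), as with Ccna2 (-0.51, limma adjusted p = 0.277).

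The mitotic kinases and the chromosomal passenger complex were lower in EVP in part. Aurka, a kinase of the spindle poles, had 744, 580.0, 814, 319 and 738 in EVP replicates 1 to 5, 1055, 749, 901, 813 and 1632 in TA and 1433, 938, 1071, 869.9 and 1238 in D. All EVP libraries were below all D libraries, though TA replicates 2 and 4 were within EVP (-0.84 ± 0.27, limma adjusted p = 0.0341). Plk1, which acts at poles and kinetochores, gave 1106, 781, 1477, 459 and 1158 in EVP replicates 1 to 5, 1382, 1050.5, 823, 1149 and 2099.8 in TA and 2324, 1657, 1344, 1581 and 1695 in D. EVP replicate 3 was above D replicate 3, and the test was passed narrowly (-0.87 ± 0.29, limma adjusted p = 0.0468).

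Birc5 and Cdca8 (survivin and borealin) bind each other in the passenger complex. Birc5 read 1282, 1333, 1914, 551 and 1653 in EVP replicates 1 to 5, 1744, 1969, 1585, 1383 and 2159.6 in TA and 2646, 3097, 2037, 2093 and 2279.6 in D. EVP and D were apart and TA overlapped both (-0.95 ± 0.27, limma adjusted p = 0.0165). Cdca8 read 867, 949.7, 1607, 535 and 1238 in EVP replicates 1 to 5, 1636, 1270.3, 1246, 1278 and 2021 in TA and 2129, 1725, 1343, 1379 and 2111 in D. EVP replicate 3 exceeded 2 of the D libraries, and the gene, which shares 2264 bases with 9930104L06Rik, passed (-0.81 ± 0.26, limma adjusted p = 0.0345). Aurkb, the kinase of this complex, had a difference of similar size that did not pass (-0.67 ± 0.27, limma adjusted p = 0.105).

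In the spindle checkpoint, Bub1b (BubR1) was at 681, 604, 785, 441 and 718 in EVP replicates 1 to 5, 1263, 729.6, 723, 913 and 1449 in TA and 1404, 906, 849.7, 926 and 1125 in D. EVP and D did not overlap, and TA replicates 2 and 3 fell in the EVP range (-0.69 ± 0.23, limma adjusted p = 0.0469). Bub1, a kinase of the same checkpoint, spread widely in TA, with 541, 464, 657, 324 and 709 in EVP replicates 1 to 5, 948, 377, 1508, 760.0 and 1166 in TA and 983, 626, 689, 698 and 861 in D. TA held both the highest library and 1 of the lowest, and no comparison of Bub1 passed (-0.55 ± 0.31 for EVP minus D, limma adjusted p = 0.295). Ube2c, the enzyme that hands ubiquitin to the anaphase-promoting complex, had 1331, 912, 1095, 467 and 942 in EVP replicates 1 to 5, 2186, 1796, 1260.1, 932 and 2027 in TA and 2749, 1628, 1351, 1485 and 1331 in D. The highest EVP and lowest D libraries were level to the nearest count, D replicate 1 stood far above the other D libraries, and the gene passed at -0.87 ± 0.30 (limma adjusted p = 0.0482). Cdc20, the activator of that complex, differed by -0.50 ± 0.27 (limma adjusted p = 0.265).

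Mki67 and Top2a, markers of proliferation, did not pass in any comparison. Mki67, which encodes Ki-67, had 1868, 1167, 1912, 694 and 1054 in EVP replicates 1 to 5, 746, 1552, 800.2, 1663 and 1869 in TA and 1909.7, 2296, 1633, 1557 and 1992 in D. EVP replicates 1 and 3 were within the D range while TA replicates 1 and 3 were nearly as low as EVP replicate 4, so the populations overlapped (-0.57 ± 0.30 for EVP minus D, limma adjusted p = 0.241). Top2a, the topoisomerase that untangles sister DNA, gave 3529, 2314, 3326, 1316 and 2141 in EVP replicates 1 to 5, 3337, 2479, 3441, 3413 and 5205 in TA and 4385, 4226, 3292, 2842 and 3862 in D. It also overlapped between EVP and D (-0.63 ± 0.25, limma adjusted p = 0.0961). Kif11, the kinesin that pushes spindle poles apart, gave 734, 766, 1141, 461 and 897 in EVP replicates 1 to 5, 1720.1, 874, 1915, 1292 and 1944 in TA and 1506, 1694, 854, 908 and 1295 in D. TA held the 3 highest libraries, and the difference from EVP was -0.95 ± 0.28 (limma adjusted p = 0.0716).

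The other 8 G2/M genes without a call differed by -0.92 (Kif23) to -0.11 (Kif20a) between EVP and D. Among them, Kif23, a kinesin of the midzone, and Tpx2, which activates Aurka on the spindle, did not overlap between EVP and D, with limma adjusted p of 0.0604 and 0.0699. Cenpe, Cenpf, Nusap1 and Foxm1, a transcription factor of G2/M genes, lay between -0.69 and -0.45, and Cdca3 was at -0.13. For the most and the least changed G2/M gene, a pair picked for that reason, Cdk1 reads per Kif20a read came to 1.56 ± 0.40 (SD, n = 5) in EVP, 2.498 ± 0.605 in TA and 3.54 ± 0.92 in D.

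Mcm3, Mcm6 and Cdk1 passed between EVP and D in all 15 fits that left out 1 library and all 12 other alternatives. Birc5 did so in 14 of the 15 and 11 of the 12 (limma adjusted p up to 0.0559), and was lost without D replicate 2. Pcna was called in 11 of the 15, Tyms and Aurka in 10, Cdca8 in 9, Ccnb2, Plk1 and E2f1 in 7, Bub1b in 6, Mcm5 in 5 and Ube2c in 4. Without EVP replicate 4, which was lowest in 33 of the 40 genes, 4 of the 40 were called, and the number was also 4 without D replicate 1, 4 without D replicate 5, 5 without D replicate 2 and 6 without EVP replicate 2.

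**Figure D3:**
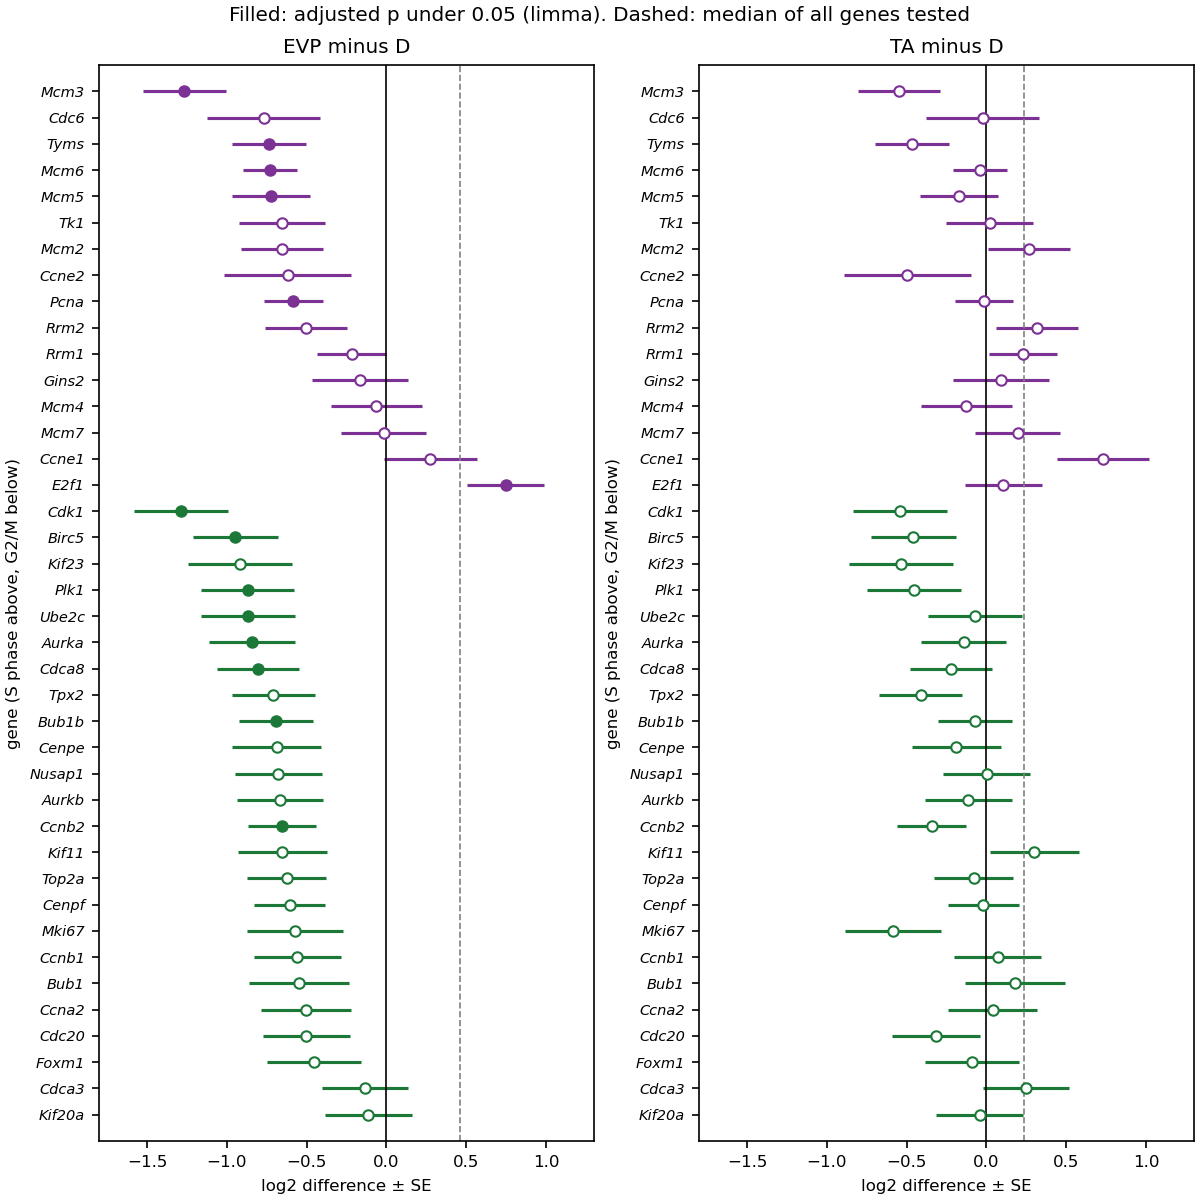
Points give the log2 difference of each gene between EVP and D (left) and TA and D (right), bars its SE; filled points passed the test and the dashed line is the median of all genes tested. On the left 13 genes are filled below 0 and E2f1 above it, and on the right none is filled.

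Between EVP and TA the median differences were nearly as large, but 1 gene passed. Mcm6 was called in 9 of the 15 fits that left out 1 library, and not without EVP replicate 2, 3 or 4 or TA replicate 1, 4 or 5 (limma adjusted p up to 0.0905 over the alternatives). It was 1 of 40 beside 3.50% of all genes in either direction and 1.94% as lower in EVP, and 37 of the 40 had a lower mean of log values in EVP, beside 45.0% of all genes. The median log2 difference was -0.50 over the S phase and -0.55 over the G2/M genes, with 0.09 over all genes. Without EVP replicate 4 the S phase and G2/M medians were -0.34 and -0.31, and without TA replicate 5 they were -0.38 and -0.41. At an unadjusted p under 0.05 there were 19 genes, 8 of S phase and 11 of G2/M. The libraries did not overlap for Pcna, Mcm6 and Nusap1, 3 of 40 beside 4.29% of all genes. After Mcm6 the smallest p were those of Mcm2, Kif11, Rrm2 and Pcna, and Ube2c was at -0.80 ± 0.30 (limma adjusted p = 0.172).

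Between TA and D no gene passed: 0 of the 40 were called with limma, edgeR and DESeq2, beside 12.5% of all genes with limma, and 2 S phase genes and 0 G2/M genes had an unadjusted p under 0.05. The median log2 difference, TA minus D, was 0.0029 over the S phase genes and -0.10 over the G2/M genes, beside 0.24 over all genes. The log2 difference was below 0 in 26 of the 40 (39.1% of all genes), and no gene of the 40 was without overlap (9.25% of all genes). Each phase's 2 smallest p were those of Ccne1, above, Mki67 (-0.59 ± 0.30, limma adjusted p = 0.26), Mcm3 (-0.55 ± 0.26, 0.205) and Cdk1 (-0.54 ± 0.29, 0.297). Against the mean of EVP and D, too, TA had 0 called genes with limma, edgeR and DESeq2, beside 2.06% of all genes with limma, and 5 at an unadjusted p under 0.05. Next to Rrm2, the smallest p were those of Kif11 (0.63 ± 0.24), Mcm2 (0.59 ± 0.22) and, second among the G2/M genes, Bub1 (0.46 ± 0.27), with limma adjusted p of 0.238, 0.217 and 0.54. These comparisons share their libraries, so they are not independent of each other.

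The order of the populations differed between the 2 phases in number. By mean normalized count, TA was highest for 8 of 16 S phase genes and D for 7, while D was highest for 17 of 24 G2/M genes and TA for 7. EVP was lowest for 37 of 40. By mean log value TA lay between EVP and D for 8 S phase and 17 G2/M genes. The mean of log2(normalized count + 1) over the S phase genes was 9.98 ± 0.34 (SD, n = 5) in EVP, 10.40 ± 0.25 in TA and 10.40 ± 0.35 in D, and over the G2/M genes 9.85 ± 0.51, 10.35 ± 0.31 and 10.51 ± 0.19. EVP replicate 4 was lowest on both, at 9.40 and 8.999. D replicates 3 and 4, with 9.95 and 10.09, lay within the EVP range over the S phase genes, and over the G2/M genes, at 10.31 and 10.34, they were level with the highest EVP library. The 40 genes took 0.153% to 0.361% of reads in EVP, 0.384% to 0.587% in TA and 0.358% to 0.503% in D.

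**Figure D4:**
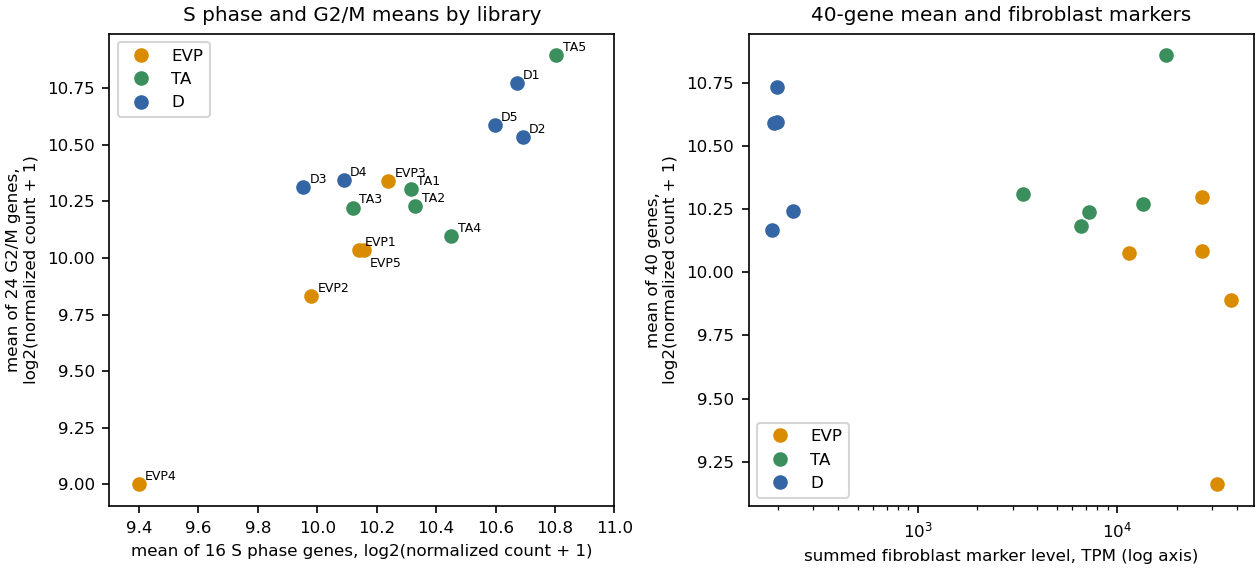
Left, the mean over 16 S phase genes (x) and 24 G2/M genes (y) of log2(normalized count + 1), 1 point per library. Right, the mean over all 40 genes against the summed level of 10 fibroblast markers in TPM, on a log axis. EVP replicate 4 lies apart at 9.40 and 8.999 on the left; on the right D lies at 185 to 236 and EVP at 11493 to 37442 on the x axis.

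Per length, Ccnb2 was the most abundant of the G2/M genes and Rrm2 of the S phase genes. On the TPM scale Ccnb2 was at a level of 233 ± 104 (SD, n = 5) in EVP, 305 ± 132 in TA and 376 ± 90.3 in D, and Rrm2 at 173 ± 84.8, 313 ± 93.3 and 253 ± 67.8. Cdc20 followed in EVP at 139.6 ± 70.3. Lowest of the 40 genes in EVP was Cenpf, at 7.0 ± 3.18 there and 10.9 ± 1.91 in D. E2f1 was lowest in D at 10.5 ± 3.47, and ranked 35 of 40 in EVP at 16.6 ± 6.49. The middle S phase gene ranked above 85.9% of 25518 tested genes in EVP and 89.4% in D, and the middle G2/M gene above 86.9% and 89.8%.

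Further genes of the same machinery, 135 in 7 lists, went the same way in part. Between EVP and D the difference was below 0 for 111 and above 0 for 24 of them (82.2% below 0, beside 32.3% of all genes). Of these, 21 (15.6%) passed the test as lower in EVP and 1 as higher, beside 7.46% and 11.6% of all genes. Of 26 genes for polymerases, clamp loading and DNA synthesis, Pold3, a subunit of polymerase delta (-1.89 ± 0.22, limma adjusted p = 6.4e-06), and Pola2, of polymerase alpha (-1.59 ± 0.21, 2.07e-05), were lower in EVP, and Dut, which removes dUTP, was higher (0.70 ± 0.21, 0.0277). Of 20 genes for origin licensing and firing, Orc6 (-0.83), of the origin recognition complex, and Gmnn (-0.78), which blocks a further round of licensing, were lower. Their medians were -0.26 and -0.33, nearer to 0 than those of the 40 genes.

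Of 20 genes for the spindle, kinesins and cytokinesis 6 were lower in EVP, led by Cep55 (-2.06 ± 0.38, limma adjusted p = 0.000581) and Cit (-1.57), both of the midbody, Kif4 (-1.26) and Kif22 (-1.07). Of 20 kinetochore and checkpoint genes 5 were lower, led by Sgo2a, a protector of centromere cohesion (-1.96), Cenpt (-1.37), Ndc80 (-1.11) and Spc25 (-0.98). Of 17 condensin, cohesin and separase genes Smc1a (-1.004), Ncaph (-0.97) and Smc4 (-0.65) were lower. Of 17 Rb, E2F and MuvB regulators Mybl2, an activator of G2/M genes (-1.63), E2f7, a repressor (-1.52), and E2f4 (-1.37) were lower, against the direction of E2f1. None of 15 genes of the anaphase-promoting complex was called, with 1 at an unadjusted p under 0.05 and a median of -0.04.

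Between TA and D 8 of the 135 passed (5.93%, beside 12.5% of all genes), 7 lower in TA and Pole4, a subunit of polymerase epsilon, higher (0.74, limma adjusted p = 0.00455). The lower ones were Cep55 (-1.55), E2f4 (-1.47), E2f7 (-1.46), Pold3 (-0.94), Pola2 (-0.88), Cenpt (-0.87) and Smc1a (-0.60). Pold3 alone passed between EVP and TA (-0.95 ± 0.22, limma adjusted p = 0.0249), and its means were 600.1 ± 82.1, 1208 ± 424 and 2238 ± 414 (SD, n = 5) in EVP, TA and D. Against the mean of EVP and D no gene of the 135 passed with limma, 18 had an unadjusted p under 0.05, and DESeq2 called 4.

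Markers of other cells, apart from the erythroid genes, differed between the populations. All 10 fibroblast genes passed the test as higher in EVP than in D. The 10 melanoma genes summed to 1740 to 4767 in EVP, 3272 to 11622 in TA and 1115 to 3337 in D, and had higher mean log values in EVP than in D for all 10, of which 2 passed the test, and 9 of the 10 passed as higher in TA than in D, in cells gated as GFP positive and lineage negative. The 11 leukocyte genes matched, of 12 listed, summed to 138 to 1684, 641 to 6216 and 503 to 1483, with all 11 higher on average in TA than in D and 5 of them past the test, and the 8 keratinocyte genes to 184 to 886, 263 to 8230 and 12.1 to 202. The 10 mural genes summed to 267 to 2286 in EVP, 214 to 9268 in TA and 163 to 613 in D, and TA replicate 5, highest for 18 of the 40 genes, had the highest mural level. The 6 erythroid genes summed to 1.08 to 2374 over all libraries, and none of them passed in any comparison. Their sums followed the replicate number, falling at each step from replicate 1 to 5 in each population. They went from 1524 to 4.03 in EVP, from 2374 to 1.08 in TA and from 1299 to 16.3 in D, and the cause was not tested. In each list all genes had more than 3 reads in at least 1 library of each population. The part of such cells in the values of the 40 genes was not tested.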

How the data were processed

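RNA of sorted EVP, TA and D cells was sequenced in 15 libraries, 5 per population, prepared by the authors with a modified Smart-Seq2 protocol. The authors mapped reads with STAR 2.5.3a to GRCm38 (mm10), counted them per gene with HTSeq-count and normalized them with DESeq2 1.10.1. The deposited values are a signal: each library's read counts per gene over that library's size factor. Within a tolerance of 0.01, 100% of values were whole multiples of the smallest value above 0 in their library, which gave whole reads. The tables of the authors' own comparisons hold fold changes, test statistics and p-values and were not used.

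Log2(normalized count + 1) of 25549 genes with a mean of at least 5 was fitted with limma 3.58.1 in R 4.3.3 (1 coefficient per population, all libraries, eBayes with trend, two-sided), with Benjamini-Hochberg adjustment over all genes tested and a threshold of 0.05. Values after ± are the SE for a difference and the SD otherwise. Folds are ratios of mean normalized counts. TPM values came from whole reads and merged exon lengths. In simulated data of 23347 genes for EVP against D, 100 genes were changed by 1 on the log2 scale and 100 by 2. Of these 17% and 72% were called, and 7.29% of all calls were false. Far fewer genes were changed there than the 19.0% called in the data, so these shares do not give the power of the fit to the data. Alternatives were edgeR 4.0.16 and DESeq2 1.42.0 on whole reads, a pseudocount of 8 or 0.5, no filter or a minimum mean of 20, quantile normalization, scaling to the same total, array weights, only 2 populations in a fit, replicate numbers as a block, and leaving out libraries.

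Members and lists were chosen with earlier results of these data known. Values in all libraries are given for Mki67, Top2a, Pcna, Mcm2, Cdk1 and Ccnb1, for the 5 genes of each phase with the smallest adjusted p between EVP and D and for the 2 in each other comparison, and for other genes called between EVP and D. In the other lists up to 4 called genes per comparison are named by size.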

Additional observations from a re-analysis of the deposited data

Results flagged for a closer look

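Over 5 libraries of a population, 1 library was set far apart from the others (a gap to the nearest library above 0.71 of the range) in 2 of 72 cases, covering 22 genes and the means of both phases in 3 populations. Chance gives about 1 in 20. The G2/M mean of TA replicate 5 was 10.90, above 10.31 in the next TA library. Ube2c in D replicate 1 had 2749 normalized counts, above 1628 in the next D library.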

How the results depend on the processing

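Between EVP and D, 6 S phase and 8 G2/M genes were called. With no filter on low values, which raised the genes tested from 25549 to 46749, 2 and 2 were called, with quantile normalization 2 and 2, and without replicate 1 in all populations 3 and 1. Array weights called 16 G2/M genes and edgeR 5. Leaving out 1 library at a time gave 2 to 6 S phase and 2 to 9 G2/M genes between EVP and D, and 0 to 2 and 0 to 2 between EVP and TA. Between EVP and TA, where 1 S phase and 0 G2/M genes were called, the S phase number was 0 with no filter, with only the 2 populations in the fit and without replicate 1 in all populations, 2 with a mean of at least 20, 3 with array weights, 4 with the same total and 5 with DESeq2, and the G2/M number was 1 with the same total and 1 with DESeq2. The cause was not tested. Between TA and D and between TA and the mean of EVP and D, 0 of the 40 were called in the alternatives run, and the number with TA below D ran from 17 to 30 over them.

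Of the 135 other genes, array weights called 49 between EVP and D in place of 22, and leaving out 1 library 15 to 25. Between EVP and TA (1 called) the number was 2 with a mean of at least 20, 7 with the same total, 3 with array weights, 0 with only the 2 populations, 13 with DESeq2, 0 without replicate 1 in all populations and 0 to 2 without 1 library. Between TA and D (8 called) array weights gave 13, DESeq2 14 and leaving out 1 library 7 to 11. Against the mean of EVP and D (0 called) a mean of at least 20 gave 1, the same total 2, array weights 3, DESeq2 4, leaving out replicate 1 in all populations 2 and leaving out 1 library 0 to 2.

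Libraries with the same replicate number deviated together in part: 11 of 15 pairs had a correlation over 0.1 (lowest -0.14, median 0.44, beside -0.017 for other pairs). Of 30 best matches 23 had the same number, and the cause was not tested. As 4 of the 15 pairs did not pass 0.1 and no source says what a number marks, the block was kept as an alternative. That cut does not show that matching by number is absent, and the main p-values take no account of it. With the replicate block, 18 of the 40 were called between EVP and D in place of 14, and between EVP and TA 2 S phase genes, 1 G2/M gene and 7 of the 135. With the same total the median of all genes, EVP minus D, was 0.36. Over all genes, array weights called 7609 between EVP and D (4859 otherwise) and 5054 between TA and D (3199 otherwise). Between EVP and TA, 893 were called, 398 higher and 495 lower in EVP. DESeq2, which gave an adjusted p for 15080 genes and not for 25549, called 1919. The same total called 240 higher and 716 lower, edgeR 214 and 449, and the fit of only the 2 populations 387 and 274. Against the mean of EVP and D, 526 were called with limma, 340 with quantile normalization, 325 with no filter and 841 with array weights. DESeq2 called 1551 there, of 17703 genes with an adjusted p.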
